A study of Mus musculus with 8 samples.

Results

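The genes described here are those whose symbols mark mitochondrial ribosomal proteins (Mrpl or Mrps, named for the large and the small subunit) or cytosolic initiation (Eif) and elongation (Eef1, Eef2) factors. Genes were grouped by this prefix, and the subunit of each protein was not checked. They were taken by symbol from 2 deposited tables of polyadenylation site counts, and they number 119 of 10060 genes. Of these, 64 belong to the mitochondrial ribosome (39 Mrpl and 25 Mrps) and 55 to the cytosolic group (43 Eif and 12 Eef), which also takes in enzymes that modify the elongation factors. The first table, which pairs a proximal and a distal site inside the 3′-most exon, lists 99 of them. The second, which pairs a site in an upstream exon with the 3′-most exon, lists 65, and 45 are in both. All 99 and all 65 passed the filter on low counts.

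The samples are total brain of 3 wild-type mice and 5 mice that carry the D50A change in Cstf2, all killed at postnatal day 50, untreated, and kept as a colony on a C57BL/6NCrl background with wild-type littermates as controls. Cstf2 encodes the RNA-binding subunit of the cleavage stimulation factor, which helps to set where a transcript is cut and polyadenylated, and the study asks how the mutation alters 3′ ends. The mutation is in every cell of the body, and total brain mixes many cell types, so fewer cells of a type and less RNA per cell cannot be told apart. Libraries were made from polyadenylated 3′ ends, so a transcript gives about the same number of reads whatever its length, and counts scaled to a common library total (CPM) can be set side by side between genes. A point mutation leaves the transcript in place, so the count of Cstf2 does not check the genotype labels.

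Mitochondrial ribosomes are built from nuclear-encoded proteins that are imported and assembled on mitochondrial ribosomal RNA, and they make the core subunits of the respiratory chain that the mitochondrial genome encodes. In the cytosol, eIF2 brings the initiator tRNA to the small ribosomal subunit, eIF3 holds the complex together, the eIF4 proteins bind the cap and unwind the leader, and the elongation factors eEF1 and eEF2 then drive each cycle of peptide growth. In neurons these steps are known for their control by kinases: 4 kinases that phosphorylate eIF2 dampen initiation under stress, the 4E-binding proteins hold back eIF4E, and eEF2 kinase slows elongation. A choice of polyadenylation site inside the last exon alters the length of the 3′ untranslated end of the mRNA, and a choice of an upstream exon can alter the protein's carboxy terminus.

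The promoters of 5 mitochondrial ribosome genes are shown, picked by their level values: the 4 in which every mutant library lay below every wild-type library, and Mrpl27, which had the largest difference in the other direction. None of the 5 passed the level test, and the level result below does not rest on them alone. The sequences are RefSeq's (GRCm38.p6), 250 bases before to 50 after the annotated start, read 5′ to 3′ on the gene's strand, with any match to the letters CCGGAAG, the core of ETS-family sites, or GCATGCGC, part of the NRF1 site, in capitals (both strands searched, so CTTCCGG in Mrps18c is a match on the other strand; no window holds more than 1 match):
Mrpl51 (chr6:125191950-125192249, plus strand): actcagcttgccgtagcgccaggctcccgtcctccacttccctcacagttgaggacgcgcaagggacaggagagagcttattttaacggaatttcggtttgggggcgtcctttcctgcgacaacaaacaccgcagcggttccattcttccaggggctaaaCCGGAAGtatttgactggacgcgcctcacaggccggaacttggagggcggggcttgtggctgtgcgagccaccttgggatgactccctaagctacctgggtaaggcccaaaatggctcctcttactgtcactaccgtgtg
Mrpl57 (chr14:57825989-57826288, plus strand): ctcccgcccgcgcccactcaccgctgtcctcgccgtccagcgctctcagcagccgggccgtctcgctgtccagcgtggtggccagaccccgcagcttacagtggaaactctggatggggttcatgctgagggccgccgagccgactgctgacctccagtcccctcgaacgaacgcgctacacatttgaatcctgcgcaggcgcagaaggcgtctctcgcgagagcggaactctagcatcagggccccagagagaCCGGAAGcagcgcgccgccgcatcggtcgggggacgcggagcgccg
Mrps18c (chr5:100798509-100798808, plus strand): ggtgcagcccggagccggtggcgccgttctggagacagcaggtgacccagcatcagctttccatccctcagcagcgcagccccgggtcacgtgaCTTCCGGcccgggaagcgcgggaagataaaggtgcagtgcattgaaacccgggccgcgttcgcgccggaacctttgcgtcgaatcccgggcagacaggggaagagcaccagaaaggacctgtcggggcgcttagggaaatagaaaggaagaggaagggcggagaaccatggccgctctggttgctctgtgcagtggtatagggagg
Mrps30 (chr13:118387203-118387502, minus strand): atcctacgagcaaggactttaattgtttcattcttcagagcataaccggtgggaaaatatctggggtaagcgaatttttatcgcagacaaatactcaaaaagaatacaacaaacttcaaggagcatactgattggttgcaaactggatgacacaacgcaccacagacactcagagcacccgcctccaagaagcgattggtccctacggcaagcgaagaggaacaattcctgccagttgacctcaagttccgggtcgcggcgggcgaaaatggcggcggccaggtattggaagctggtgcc
Mrpl27 (chr11:94653541-94653840, plus strand): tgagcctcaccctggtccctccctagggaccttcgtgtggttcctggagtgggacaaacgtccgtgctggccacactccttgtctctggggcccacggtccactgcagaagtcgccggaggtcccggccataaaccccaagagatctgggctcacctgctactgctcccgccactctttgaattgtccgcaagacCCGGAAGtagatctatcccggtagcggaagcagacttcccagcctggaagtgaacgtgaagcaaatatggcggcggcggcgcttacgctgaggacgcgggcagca
CCGGAAG was present in 4 of these 5 windows, from -156 in Mrps18c to 4 in Mrpl57 relative to the start, and GCATGCGC in none of them. RefSeq promoters were matched by symbol for 58 of the 64 mitochondrial ribosome genes (62 promoters) and 43 of the 55 cytosolic factors (53 promoters). CCGGAAG stood in 33.9% of the mitochondrial and 28.3% of the cytosolic promoters, against 8.86% of all 32851 promoters of the same length. GCATGCGC stood in 11.3%, 9.43% and 2.71% of them. These are counts of letters, not of bound factors, and base composition was not matched.

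The first table held 9616953 to 17530761 reads per library and the second 7075383 to 13145966, of which the genes described here took 1.43% to 1.75% in the first. Some libraries stood apart. Summed over 11 of 14 listed markers of cerebellar granule cells (Cbln1, Cbln3, Zic1 and others; none at 0 in any library), the level was 2566 to 3351 CPM in the wild types and 834 to 913 CPM in mutants 1 to 4, but 2823 CPM in mutant 5, inside the wild-type range. The gap was much smaller over the 3 markers of the second table (Gabra6, Etv1 and Kcnc1, 1 of them at 0 in some library). These summed to 411 to 482 CPM in wild types, 279 to 389 CPM in mutants 1 to 4 and 459 CPM in mutant 5. Such sums weigh abundant genes most. Excitatory forebrain neuron markers (9 of 9 measured) summed to 7339 CPM in wild type 1, and to 10452 to 14690 CPM in the other 7 libraries. Oligodendrocyte markers (6 of 8) summed to 3906 to 4821 CPM in wild types and 3301 to 4110 CPM in mutants, and astrocyte markers (2 of 6) to 816 to 1394 against 801 to 1716 CPM. Microglial markers (3 of 6) gave 213 to 278 and 214 to 265 CPM, endothelial ones (2 of 4) 32.2 to 129.5 and 66.7 to 181.2 CPM, and the choroid plexus marker Ttr 1183 to 1510 and 902 to 1661 CPM. For astrocyte markers wild type 3 was the highest wild type (1394 CPM) and mutant 5 the lowest mutant (801 CPM). The same held for endothelial markers (129.5 and 66.7 CPM). The main counts, the calls and the values of several genes in which mutant 5, wild type 1 or wild type 3 stood apart are therefore given with and without these libraries, and the part of the cell mixture in them was not tested.

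In wild-type brain, mitochondrial ribosome transcripts ended mostly at the proximal of the 2 sites. The distal site took a median of 13.6% of the pair's reads over 53 mitochondrial ribosome genes, 38.7% over 46 cytosolic factors and 52.0% over all 7876 tested pairs. It took under 10% in 25 of the 53 (47.2%), against 18.1% of all pairs. The sites lay a median of 249 bases apart in the mitochondrial genes, 572 in the cytosolic and 626 in all pairs. The closest pairs, in Mrpl51, Mrps16, Mrps35 and Eif1b, were 25 bases apart, a spacing at which the 2 ends may be variants of 1 cleavage region. Mrpl33 had the widest spacing, 32227 bases, with a distal share of 0.29% ± 0.194 (SD, n = 3), followed among mitochondrial genes by Mrps18c (4700 bases) and Mrps26 (3302 bases). Among cytosolic factors Eif2d (14181 bases), Eif3m (11839 bases) and Eif4ebp3 (5077 bases) were widest, with distal shares of 9.1%, 34% and 6.02%. At the other end Mrps12, whose protein forms part of the decoding site, was the only mitochondrial member above 90% distal (99.4% ± 0.115), while 9 cytosolic factors were, among them Eef2, Eif4a1, Eif4a2 and Eif4g1. Shares nearest to 50% were those of Mrpl43 (49.1%), Mrps2 (47.2%) and Mrpl18 (45.1%), and of Eef2kmt (45.5%), Eif5a2 (55.2%) and Eef2k (58.3%).

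**Figure D1:**
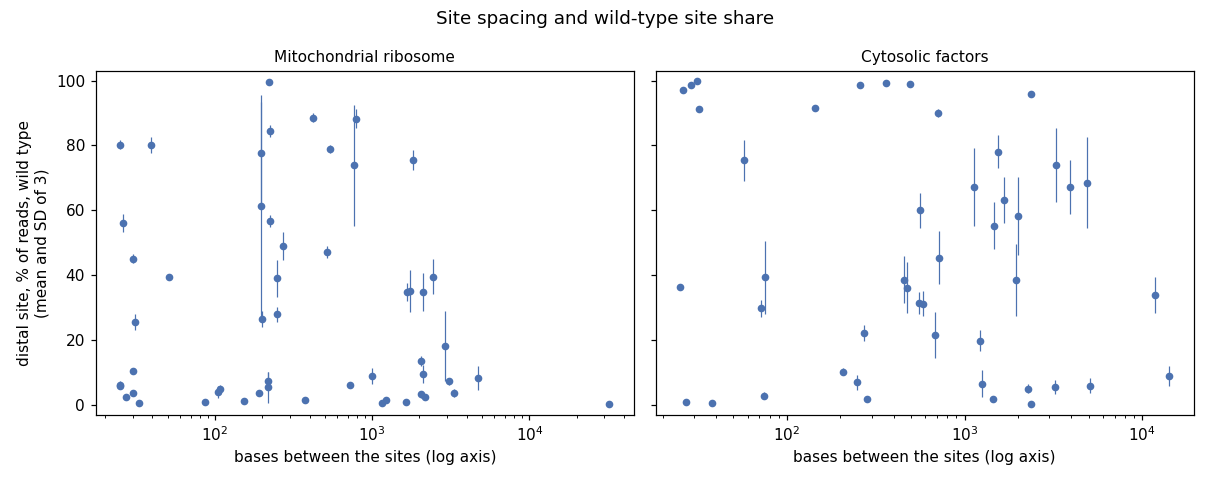
Distance between the proximal and distal site (x axis, bases, log scale) and the wild-type share of reads at the distal site (y axis, percent, mean and SD of 3 libraries) for 53 mitochondrial ribosome genes (left) and 46 cytosolic factors (right). Of the mitochondrial genes 25 lie under 10%, and the point at the far right of the left panel is Mrpl33 at 32227 bases.

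Among mitochondrial ribosome genes of the first table the most abundant in wild-type brain were Mrpl12, Mrpl33 and Mrpl37 (8.94, 8.08 and 8.02 log2 CPM). Mrpl12 forms the stalk that recruits translation factors. In the second table Mrps6, which the first does not list, led with 9.17 log2 CPM, with Mrpl37 (8.44) and Mrps25 (7.86) next. Mrps6 had a mean of 4944 reads per library there, and Mrpl12 had 4956 in the first table. The leading cytosolic factors of the first table were Eef2 (11.52 log2 CPM), the translocase of the elongation cycle, Eif1 (10.02), which guards start codon choice, and its paralog Eif1b (9.72). In the second table they were Eef2 (11.98), Eif3h (10.30) and Eif4g2 (9.67). Eef1a1, which encodes the tRNA-delivering factor of most tissues, was listed at only 3.49 log2 CPM against 7.91 for Eef1a2, its neuronal and muscle paralog. Eef1a1 has many processed copies in the genome, so its count is uncertain.

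Levels of mitochondrial ribosome genes were mostly lower in mutants, but no single gene passed the test. Level here is the summed reads of both sites. It was compared by the quasi-likelihood F test of edgeR after TMM scaling, with Benjamini-Hochberg adjustment over all genes of a table and a threshold of 0.05. In the first table edgeR called 0 of 7876 genes (0%) and DESeq2 called 26 (0.33%), none of them a mitochondrial ribosome gene or a cytosolic factor. At an unadjusted p under 0.05 edgeR gave 15 of 53 mitochondrial ribosome genes (28.3%) lower in mutants, where 7.05% of all genes were lower, and 2 (3.77%) higher, where 7.29% of all genes were. The log2 change was negative in 45 of the 53 (84.9%, against 49.2% of all genes). Its median was -0.30, against 0.01 over all 7876 genes. Both prefixes took part in the count, with 10 of 34 Mrpl genes lower (median -0.31) and 5 of 19 Mrps genes (median -0.23). Every mutant lay below every wild type in 4 genes (7.55%), where 2.31% of all genes did so, and none had every mutant above, which 2.45% of all genes had.

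Library by library the separation was partial. The median deviation of the 53 genes from their wild-type mean was 0.29, -0.04 and -0.23 (log2) in wild types 1 to 3, and -0.36, -0.32, -0.17, -0.34 and -0.13 in mutants 1 to 5. Wild type 1 was thus the highest, and wild type 3 lay inside the range of the mutants. Of the 53 genes, 44 had wild type 3 as the wild type nearest the mutant mean, and 32 had mutant 5 as the mutant nearest the wild-type mean. The count of 15 lower genes became 3 without wild type 1, 29 without wild type 3, 23 without mutant 5, 6 when mutant 1, 2 or 4 was left out, and 12 without both wild type 1 and mutant 5. Over all 7876 genes, 1129 had an unadjusted p under 0.05 in either direction with all libraries. That number was 340 without wild type 1, 2596 without wild type 3, 2275 without mutant 5 and 1342 without wild type 1 and mutant 5. The median of the 53 genes was -0.14 without wild type 1 and -0.18 without both, so its sign did not depend on either library. Cytosolic factors gave a median deviation of 0.18, -0.10 and 0.00 in the wild types and of -0.14 to -0.01 in the mutants.

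**Figure D2:**
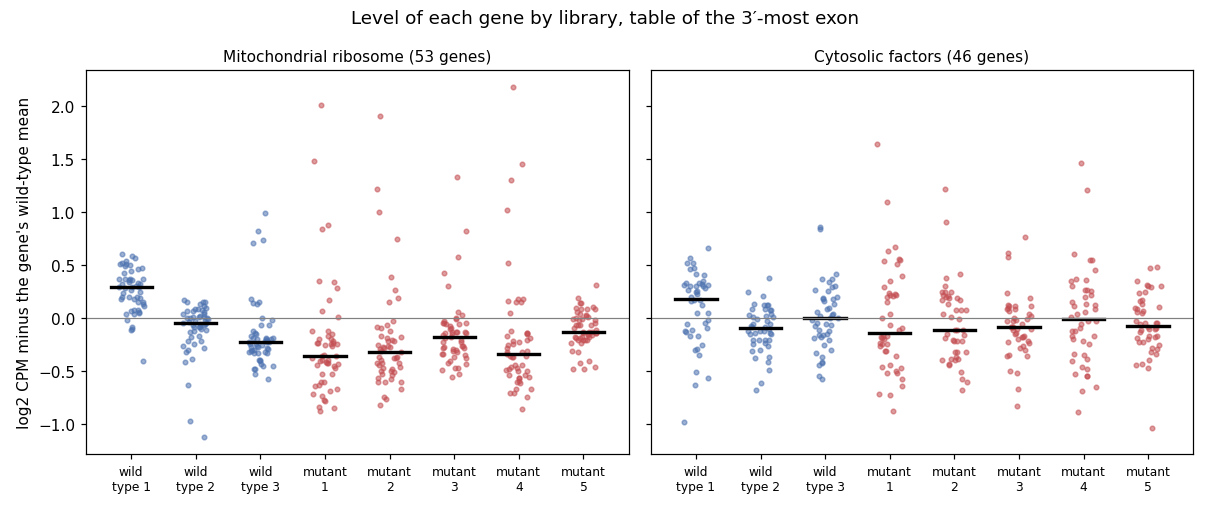
Log2 CPM of each gene minus its wild-type mean (y axis) in each of 8 libraries (x axis; blue wild type, red mutant) for 53 mitochondrial ribosome genes (left) and 46 cytosolic factors (right). Points are genes and black bars are medians; on the left wild type 1 has its median at 0.29 and the 5 mutants lie between -0.36 and -0.13, a range that includes wild type 3 at -0.23.

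The smallest p among lower mitochondrial ribosome genes was that of Mrpl57, a small protein of the large subunit. Its level was 7.15, 6.79 and 6.54 log2 CPM in wild types and 5.99, 6.01, 6.39, 6.33 and 6.51 in mutants 1 to 5. No mutant reached the lowest wild type, and mutant 5 was the nearest. This gave a log2 change of -0.59 (SE 0.175, adjusted p = 0.343, edgeR).

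Mrpl51, also of the large subunit, had 6.87, 6.73 and 6.58 log2 CPM in wild types and 6.26, 6.35, 6.20, 6.27 and 6.52 in mutants (log2 change -0.41, SE 0.122, adjusted p = 0.343, edgeR). Its groups did not overlap either, and mutant 5 was again nearest. Mrps18c, a small-subunit protein with a bacterial counterpart, had 6.06, 5.52 and 5.51 log2 CPM against 5.35, 5.32, 5.23, 5.34 and 5.21, and here mutant 5 was the lowest. Mrps30 is the other of the 4 genes without overlap and is named for that reason, after its values were seen (wild types 4.78 to 5.08, mutants 4.51 to 4.69 log2 CPM, log2 change -0.30).

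Of the remaining lower genes, Mrpl41 (log2 change -0.47, SE 0.168) and Mrpl58 (-0.54, SE 0.194) had overlapping groups. Mrpl58 encodes a peptidyl-tRNA hydrolase that frees stalled mitochondrial ribosomes and is a ribosomal protein as well. Mrpl12, the stalk protein, had 9.45, 8.91 and 8.45 log2 CPM in wild types and 8.25 to 8.76 in mutants (log2 change -0.55, SE 0.213, adjusted p = 0.343, edgeR), with wild type 3 inside the mutant range. For Mrpl12 the log2 change was -0.26 without wild type 1, -0.76 without wild type 3 and -0.64 without mutant 5. Mrps12 differed less (log2 change -0.16, SE 0.141).

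Mrpl27, which sits near the peptidyl transferase center, was higher in most mutants. Its level was 3.50, 2.55 and 4.51 log2 CPM in wild types and 5.53, 5.43, 4.86, 5.70 and 3.83 in mutants 1 to 5. Mutants 1 to 4 lay above all wild types, and mutant 5 lay below wild type 3. Its log2 change was 1.49 (SE 0.497, adjusted p = 0.343, edgeR), and over 16 alternatives it ranged from 1.10 to 2.15 with adjusted p from 0.0654 to 0.743. Mrpl9 was the other gene higher at an unadjusted p under 0.05 (log2 change 0.79, SE 0.35).

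**Figure D3:**
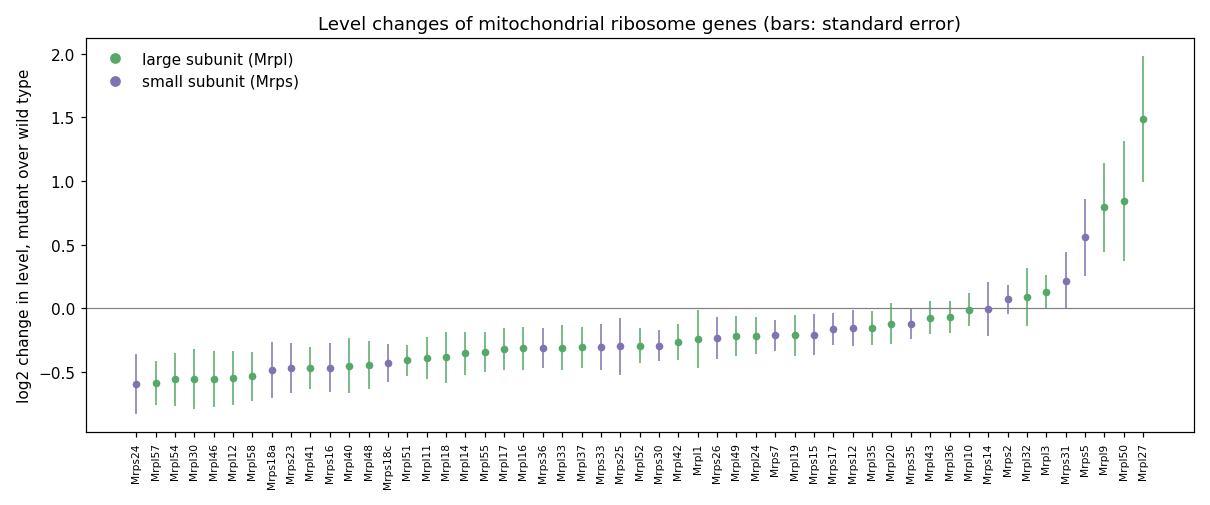
Log2 change in level, mutant over wild type (y axis), with its standard error, for 53 mitochondrial ribosome genes of the first table in rising order (x axis; green Mrpl, purple Mrps). Of the 53 points 45 lie below 0 (49.2% of all genes do), and Mrpl27 stands at the right end with 1.49.

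The second table, which shares reads with the first (in each of the 45 genes in both, the count of the 3′-most exon was never below the sum of the pair), also had lower levels for most of its 28 mitochondrial ribosome genes. edgeR and DESeq2 each called 0 of 6001 genes (0%) there. At an unadjusted p under 0.05, 7 of 28 were lower (7.47% of all genes were) and 1 higher (7.6% of all). The log2 change was negative in 22 (78.6%, against 49.4% of all genes), and the median was -0.23 against 0.01 over all genes. The 7 lower genes were all of the large subunit, and Mrpl27 was again the higher one (log2 change 1.29, SE 0.416). Mrpl15, measured only in this table, was the 1 gene in which every mutant lay below every wild type, where 2.5% of all genes did and 2.28% had every mutant above: 6.00, 5.68 and 5.61 log2 CPM against 5.45, 5.47, 5.36, 5.41 and 5.54 (log2 change -0.33, SE 0.123, adjusted p = 0.327, edgeR). The count of 7 became 0 without wild type 1, 3 without wild type 2, 11 without wild type 3, 4 when any 1 of mutants 1 to 4 was left out, and 12 without mutant 5. At this p the count over all 6001 genes, in either direction, was 904. It was 326 without wild type 1, 585 without wild type 2, 1958 without wild type 3 and 1768 without mutant 5.

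Lower levels were not particular to the mitochondrial ribosome. Cytosolic ribosomal proteins had a median log2 change of -0.54 over 47 genes in the first table, with 31 lower at an unadjusted p under 0.05, and oxidative phosphorylation subunits a median of -0.31 over 61, with 25 lower. At this p 7.05% of all genes there were lower and 7.29% higher. Their library medians had the same order at the top, with wild type 1 at 0.63 and 0.27. The 5 measured mitochondrial ribosome subunits without the Mrp prefix, such as Dap3, had a median of -0.30, with 2 lower. Proteins that act on the mitochondrial ribosome differed in direction: of 15 mitochondrial translation factors 3 were higher and 2 lower, with a median of 0.09, and of 16 mitochondrial aminoacyl-tRNA synthetases 2 were higher and 0 lower, with a median of 0.00. These differences between lists were not tested.

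Site choice inside the last exon of mitochondrial ribosome genes leaned to the distal site, close to what all pairs did. The test was the interaction of site and genotype in the quasi-likelihood model of edgeR, with each library as a block. edgeR called 0 of 7876 pairs (0%) and DESeq2 21 (0.267%), again with no member among them. At an unadjusted p under 0.05, 9 of 53 mitochondrial ribosome genes (17%) had more distal reads in mutants, where 8.67% of all pairs had, and 1 (1.89%) more proximal reads, where 4.25% had. The log2 change was positive in 37 of 53 (69.8%, against 59.2% of all pairs), with a median of 0.17 against 0.12 over all pairs. Of the 9, 7 were Mrpl genes (median 0.18 over 34) and 2 Mrps genes (median 0.07 over 19). Every mutant lay above every wild type in 4 genes (7.55%, against 2.53% of all pairs) and below in none (1.63% of all pairs). The count of 9 became 4 without wild type 1, 5 without wild type 2 and 12 without mutant 5, and it was 9 without wild type 3. At this p the count over all 7876 pairs, in either direction, was 1018. It was 420, 300, 2182 and 1924 in the same fits, in the same order.

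Mrpl32, a large-subunit protein that is matured by a mitochondrial protease, has sites 2118 bases apart, at positions 14702569 and 14700451 of the file's build (mm9, with no chromosome given). Its distal site took 34.8%, 28.8% and 40.5% of reads in wild types and 47.2%, 50.6%, 57.2%, 44.0% and 53.7% in mutants. All mutants, mutant 5 included, were above all wild types. Its log2 change was 0.95 (SE 0.282, adjusted p = 0.380, edgeR), from a mean of 155.6 reads per library. Its level showed no such separation (log2 change 0.09).

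Mrpl10, which anchors the Mrpl12 stalk, gave 3.71%, 1.79% and 10.8% in wild types and 20.7%, 18.3%, 16.4%, 17.4% and 5.54% in mutants 1 to 5. Mutant 5 lay inside the wild-type range and the other mutants above it, and wild type 3 was the highest wild type. For Mrpl10 the log2 change was 1.90 (SE 0.631, adjusted p = 0.380, edgeR). Without mutant 5 it was 2.21, without wild type 1 it was 1.76 and without wild type 3 it was 2.71. Mrpl37, in which mutant 5 also lay in the wild-type range, had 6.77%, 8.39% and 11.5% in wild types and 17.9%, 16.8%, 16.0%, 13.6% and 10.6% in mutants (log2 change 0.86, SE 0.255). Its log2 change was 1.00 without mutant 5 and 0.67 without wild type 1.

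Mrps33 used the distal site little in either genotype, and Mrpl48 little in wild types. The distal share of Mrps33 was 0.868% to 2.43% in wild types and 1.93% to 5.33% in mutants (log2 change 1.41, SE 0.417). That of Mrpl48 was 6.64% to 8.51% in wild types and 7.90% to 20.4% in mutants (log2 change 0.99, SE 0.358). In both genes mutant 5 had the lowest mutant share.

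Mrps5, a small-subunit protein of the decoding region, was the 1 gene with more proximal reads at an unadjusted p under 0.05. Its distal share was 28.9%, 18.2% and 7.52% in wild types and 4.03%, 3.94%, 6.01%, 6.88% and 13.5% in mutants (log2 change -1.54, SE 0.56, adjusted p = 0.380, edgeR). Mutant 5 again was within the wild-type range. For Mrps5 the log2 change was -1.84 without mutant 5, -1.02 without wild type 1 and -2.14 without wild type 3. Besides Mrpl32, the genes without overlap between the groups were Mrps14, Mrpl30 and Mrpl46, named after their values were seen. The wild-type and mutant ranges were 35.5% to 45.6% and 47.9% to 51.7% for Mrps14, 3.58% to 4.21% and 4.83% to 5.99% for Mrpl30, and 52.8% to 58.0% and 58.4% to 59.6% for Mrpl46.

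**Figure D4:**
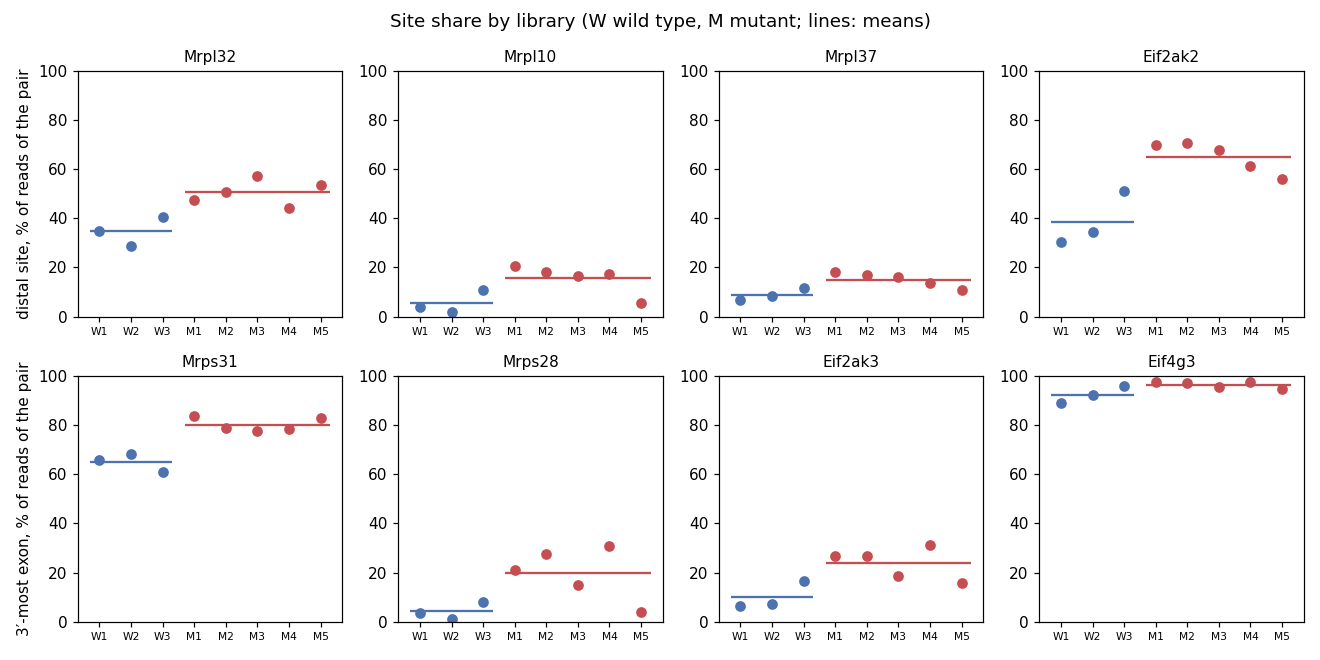
Share of a pair's reads at the distal site (top row) or in the 3′-most exon (bottom row) in percent (y axis, 0 to 100) for 8 genes in each library (x axis; W1 to W3 wild type, M1 to M5 mutant). Lines are group means; Mrpl32, Eif2ak2 and Mrps31 have no overlap between the groups, whereas in Mrpl10 mutant 5 lies at 5.54%, among the wild types.

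In the second table most reads of these genes ended in the 3′-most exon, with a wild-type median share of 97.8% for 28 mitochondrial ribosome genes, 96.3% for 37 cytosolic factors and 93.8% for all 6001 pairs. Of the mitochondrial genes only Mrpl15 (2.41%) and Mrps28 (4.23%) ended mainly in the upstream exon, and of the cytosolic only Eif2ak3 (10.1%) and, by a small margin, Eif5b (43.5%). edgeR called 0 of 6001 pairs (0%) for usage and DESeq2 5 (0.0833%), none a member. At an unadjusted p under 0.05, 3 of 28 mitochondrial ribosome genes had more reads in the 3′-most exon (10.4% of all pairs did) and 2 more in the upstream exon (3.63% of all). The median log2 change was 0.01 against 0.17 over all pairs, with 14 genes on either side of 0, where 62.2% of all pairs were positive.

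Mrps28, of the small subunit, had 3.41%, 1.18% and 8.11% of its reads in the 3′-most exon in wild types and 21.2%, 27.7%, 14.9%, 30.8% and 3.95% in mutants 1 to 5. Mutants 1 to 4 were above all wild types and mutant 5 was among them. For Mrps28 the log2 change was 2.45 (SE 0.753, adjusted p = 0.282, edgeR), from 75.4 reads per library. Without mutant 5 it was 2.84 and passed the threshold (adjusted p = 0.0294, edgeR), in a fit that called 236 of 6001 pairs; over all its alternatives the adjusted p ranged from 0.0294 to 0.668.

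Mrps31 gave 66.0%, 68.3% and 61.1% in wild types and 83.6%, 78.7%, 77.8%, 78.4% and 82.8% in mutants (log2 change 1.10, SE 0.356, adjusted p = 0.282, edgeR). All mutants lay well above all wild types, mutant 5 included. Inside its last exon the distal share of the same gene was 59.5% to 89.1% in wild types and 31.7% to 83.3% in mutants (log2 change -1.60, SE 0.743), from 41.8 reads per library.

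The other mitochondrial genes named here were almost wholly in the 3′-most exon. Mrpl36 was at 99.5% in all 3 wild types and 99.6% to 99.9% in mutants, with no overlap. It had a mean of 1106 reads per library, few of them upstream. Mrpl54 had 98.5% to 99.6% in wild types and 97.5% to 98.6% in mutants (log2 change -1.40, SE 0.459), and without wild type 3 its log2 change was -2.04 (adjusted p = 0.0462, edgeR), in a fit that called 160 of 6001 pairs. Mrpl41 was the gene with every mutant below every wild type, with 94.2% to 94.8% against 91.3% to 93.0%. Over all pairs, every mutant lay above in 4.23% and below in 1.65%. Mrpl27 had 97.9% to 99.3% and 98.9% to 99.9%.

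Inside the 3′-most exon the counts of cytosolic factors at an unadjusted p under 0.05 lay near or under the shares of all genes. There 2 of 46 were higher and 2 lower in level at an unadjusted p under 0.05 (4.35% each way, against 7.29% and 7.05% of all genes). The median log2 change was -0.05, with 26 of the 46 negative (56.5%, against 49.2% of all genes). In usage 3 had more distal and 2 more proximal reads (6.52% and 4.35%, against 8.67% and 4.25% of all pairs). The median there was 0.04, and 24 of 46 were positive (52.2%, against 59.2% of all pairs). In level every mutant lay above every wild type in 0 and below in 1 (2.17%), against 2.45% and 2.31% of all genes. In usage this held for 1 (2.17%) above and 2 (4.35%) below, against 2.53% and 1.63% of all pairs. Of the 37 with an upstream site, 3 were higher and 4 lower in level (8.11% and 10.8%, against 7.6% and 7.47% of all genes). Their median was -0.10, and 26 of the 37 (70.3%) were negative, where 49.4% of all genes were. In usage 3 of the 37 (8.11%) had more reads in the 3′-most exon, where 10.4% of all pairs had, and 0 more in the upstream exon, where 3.63% had. The median was 0.21 against 0.17 over all pairs, and 24 of 37 were positive (64.9%, against 62.2% of all pairs). Every mutant lay above every wild type in 2 of the 37 (5.41%) and below in 0, against 4.23% and 1.65% of all pairs. None was called by either tool in any of the 4 tests. Without mutant 5 the lower level counts were 9 and 11 and the distal count was 9; without wild type 3 they were 9, 12 and 7, and without wild type 1 the lower counts were both 0. Without wild type 2 the distal count was 1, and without mutant 5 the count toward the 3′-most exon was 5. The counts over all genes and pairs, given above for level and the distal site, moved the same way in these fits. Between exons the count over all 6001 pairs, in either direction, went from 841 to 1378 without mutant 5.

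**Figure D5:**
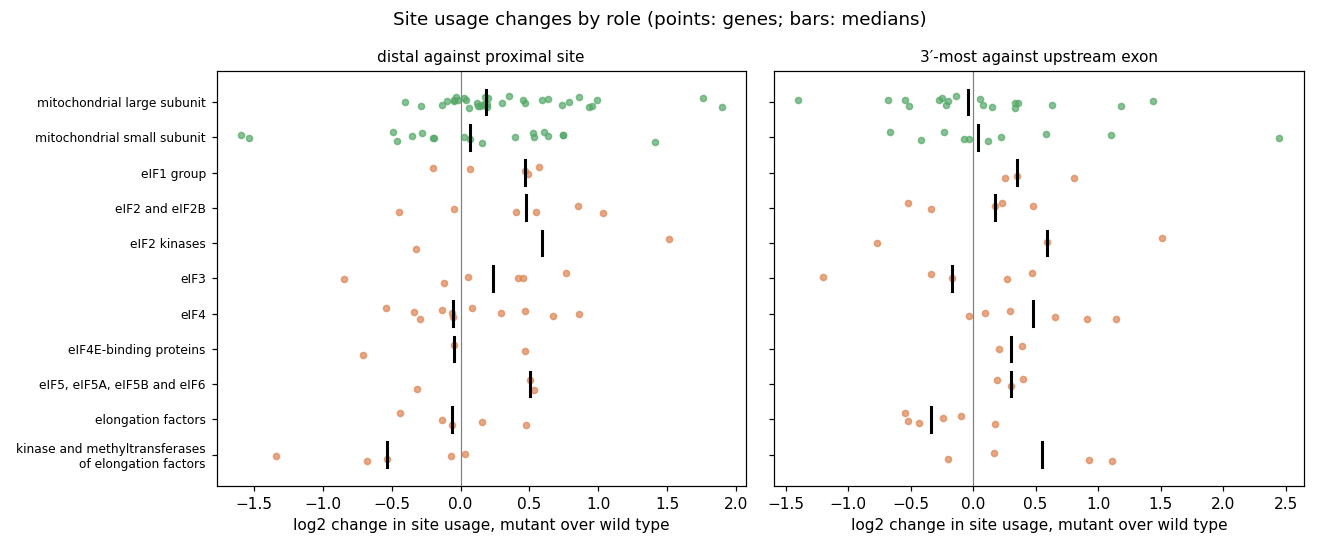
Log2 change in site usage, mutant over wild type (x axis), of each gene (points) by its role (y axis; bars are medians), for the distal against the proximal site (left) and the 3′-most against the upstream exon (right). Medians in the left panel run from -0.54 for enzymes that modify elongation factors to 0.59 for the eIF2 kinases, which are 2 genes there.

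Of the eIF2 kinases, Eif2ak2 (PKR, activated by double-stranded RNA) had the smallest p of all members inside the last exon. Its distal share was 30.4%, 34.2% and 51.3% in wild types and 70.0%, 70.6%, 67.7%, 61.2% and 56.0% in mutants 1 to 5. No mutant overlapped a wild type, and mutant 5 was the nearest to wild type 3. Its log2 change was 1.51 (SE 0.422, adjusted p = 0.380, edgeR), from only 32.4 reads per library, and the level hardly differed (log2 change -0.05).

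Eif2ak3 (PERK, the sensor of unfolded protein in the endoplasmic reticulum) had 6.47%, 7.20% and 16.7% of its reads in the 3′-most exon in wild types and 26.8%, 26.6%, 18.4%, 31.4% and 15.6% in mutants. Mutants 1 to 4 were above all wild types and mutant 5 just under wild type 3. The log2 change was 1.51 (SE 0.411, adjusted p = 0.282, edgeR), and it passed the threshold without wild type 3 (2.07, adjusted p = 0.0358, edgeR) and without mutant 5 (1.65, adjusted p = 0.0373, edgeR), fits that called 160 and 236 of 6001 pairs. Its summed level had a log2 change of 0.53 (SE 0.23, adjusted p = 0.328, edgeR), and the groups overlapped. Mutant 5, at 4.74 log2 CPM, lay below wild types 1 and 3, at 5.12 and 5.03.

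Eif2ak4 (GCN2, the sensor of uncharged tRNA) had 65.7% to 70.6% in the 3′-most exon in wild types and 70.7% to 84.0% in mutants, without overlap but with mutant 5 at the border (log2 change 0.59, SE 0.38). Eif2ak1 (the heme-regulated kinase) was at 99.3% and 99.1% on average. Neither differed in level at an unadjusted p under 0.05.

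Of eIF2 itself, Eif2s2, the beta subunit, had a distal share of 2.34%, 2.16% and 4.22% in wild types and 6.48%, 4.84%, 4.48%, 7.37% and 2.59% in mutants (log2 change 0.85, SE 0.367). The mutants other than mutant 5 were above the wild types, and without mutant 5 the log2 change of Eif2s2 was 1.07. Eif2s2 was also a gene in which both ends were used much alike, with a wild-type 3′-most exon share of 56.0%. Eif2s1, the alpha subunit that the kinases phosphorylate, differed little in level (log2 change -0.05, SE 0.226), and the sign of that value turned with the libraries used. Eif2b5, the catalytic subunit of the exchange factor eIF2B, had a log2 change in level of -0.44 (SE 0.223).

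Level changes of the eIF3 subunits had either sign, 3 of 6 being positive and 3 negative in the first table. Eif3h had 10.55, 9.81 and 9.31 log2 CPM in wild types and 9.02, 9.21, 9.39, 9.0 and 9.69 in mutants (log2 change -0.69, SE 0.261, adjusted p = 0.343, edgeR), and the groups overlapped through wild type 3. The log2 change of Eif3h was -0.30 without wild type 1, -0.94 without wild type 3 and -0.82 without mutant 5. Eif3k, in the second table, had 9.78, 9.30 and 8.89 log2 CPM against 8.45 to 9.13 (log2 change -0.61, SE 0.217). Eif3f, in the first table, had a log2 change of -0.37 (SE 0.173), with an unadjusted p of 0.0565 (edgeR), just above the threshold.

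Eif3c, of the core of eIF3, was higher, with 6.23, 6.82 and 7.16 log2 CPM in wild types and 7.05 to 7.35 in mutants (log2 change 0.44, SE 0.193). Its distal share was 41.5%, 30.4% and 44.1% in wild types and 57.4%, 52.0%, 49.9%, 54.7% and 43.7% in mutants (log2 change 0.77, SE 0.253, adjusted p = 0.380, edgeR), with only mutant 5 inside the wild-type range; without it the log2 change was 0.88. Eif3e had more proximal reads (5.56% ± 2.11, n = 3, and 3.18% ± 1.24, n = 5, distal; log2 change -0.85, SE 0.359). Eif3a had a log2 change in level of 0.36 (SE 0.165) in the first table, with an unadjusted p of 0.0562 (edgeR), just above the threshold. Eif3d, at over 99% in the 3′-most exon in each library, gave -1.20 (SE 0.592) for usage on the log2 scale.

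Among the eIF4 proteins, Eif4g3, a cap-complex scaffold, had the largest difference in level. It had 5.01, 5.42 and 6.48 log2 CPM in wild types and 7.28, 6.85, 6.40, 7.10 and 6.12 in mutants 1 to 5. Mutants 3 and 5 lay below wild type 3. For level the log2 change was 1.04 (SE 0.362, adjusted p = 0.343, edgeR) and 0.77 (SE 0.266) in the second table.

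The 3′-most exon share of Eif4g3 was 89.1%, 92.2% and 96.0% in wild types and 97.7%, 97.0%, 95.5%, 97.5% and 94.8% in mutants. For this usage the log2 change was 1.14 (SE 0.384, adjusted p = 0.282, edgeR) and passed the threshold only without wild type 3 (1.56, adjusted p = 0.0462, edgeR), where 160 of 6001 pairs did. Its paralog Eif4g1 had a log2 change in level of 0.68 (SE 0.36), with wild types spread from 7.15 to 9.0 log2 CPM and mutants from 8.44 to 9.35. Eif4g2, a relative that acts without the cap-binding protein, had a log2 change in level of 0.02 (SE 0.123). Its 3′-most exon share was 99.92% to 99.93% in wild types and 99.94% to 99.98% in mutants, without overlap. With a mean of 7534.5 reads per library, that gap rests on a few upstream reads (unadjusted p = 0.0728, edgeR).

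Eif4b, which assists the helicase, had a distal share of 35.4%, 27.9% and 30.3% in wild types and 56.4%, 56.4%, 50.0%, 30.7% and 33.0% in mutants (log2 change 0.86, SE 0.386). Mutants 1 to 3 stood above the wild types, and mutants 4 and 5 among them. The cap-binding protein Eif4e (log2 change in usage 0.08, in level -0.21), the helicases Eif4a1 (-0.14 and 0.15) and Eif4a2 (-0.06 and -0.31) and the inhibitor Eif4ebp1 (-0.04 and -0.21) did not pass an unadjusted p of 0.05 in either test. The level of Eif4a2 had an SE of 0.168 and that of Eif4e an SE of 0.143. Eif4ebp2, the main 4E-binding protein of brain, had a distal share of 62.6% to 85.4% in wild types and 57.5% to 74.9% in mutants (log2 change -0.71, SE 0.421). The initiation factors Eif5 and Eif5b had wild-type 3′-most exon shares of 50.2% and 43.5%, and log2 changes of 0.40 and 0.19. Eif6, which keeps the large subunit apart, was in the second table only (log2 change in level -0.26).

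Of the elongation factors Eef1g, a subunit of the exchange complex for eEF1A, was lower, with 9.15, 8.76 and 8.33 log2 CPM in wild types and 8.02, 8.17, 8.48, 8.20 and 8.56 in mutants (log2 change -0.48, SE 0.194, adjusted p = 0.343, edgeR). Wild type 3 was inside the mutant range. Without wild type 1 the log2 change of Eef1g was -0.27, without wild type 3 it was -0.67 and without mutant 5 it was -0.56. Eef2 (log2 change -0.30, SE 0.174) and the uncertain Eef1a1 (-0.51, SE 0.243) had negative values, and Eef1a2 a positive one (0.14, SE 0.193). The median over 5 elongation factors was -0.33. The distal share of Eef2 differed by less than the spread between libraries, at 91.6% ± 0.831 (n = 3) in wild types and 91.3% ± 0.408 (n = 5) in mutants. That of Eef1a2 was 21.5% ± 7.09 and 16.5% ± 3.34. For Eef1a2 the difference was under the SD of the wild types, with wild type 1 at 29.2%, but over that of the mutants.

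Of the enzymes that modify the elongation factors, Eef1akmt2, a lysine methyltransferase of eEF1A, had a distal share of 55.6%, 83.3% and 66.7% in wild types and 51.7%, 40.0%, 47.5%, 39.4% and 53.2% in mutants. All mutants lay below all wild types, from 48.4 reads per library (log2 change -1.34, SE 0.452, adjusted p = 0.380, edgeR). Its 3′-most exon share was higher in mutants, with 51.6% to 62.4% in wild types and 60.8% to 86.4% in mutants (log2 change 1.11, SE 0.432). Eef2kmt, which methylates eEF2, had 79.4% ± 9.22 (n = 3) and 88.2% ± 3.6 (n = 5) in the 3′-most exon. Eef2k, the eEF2 kinase, had a distal share of 63.1%, 67.2% and 44.7% in wild types and 33.2% to 55.2% in mutants (log2 change -0.68, SE 0.403), and a log2 change in level of 0.23. The readthrough locus Eef1akmt4-ece2 carried the same counts as Ece2 and is uncertain.

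Other genes of translation were described from fixed lists, and the single genes named from them were picked with their values known. For cytosolic termination, recycling and scanning 0 of 12 genes differed in level at an unadjusted p under 0.05 in the first table, 2 had more distal and 1 more proximal reads. The shares of all genes or pairs at this p were 7.29% higher and 7.05% lower in level, and 8.67% distal and 4.25% proximal in usage. Cap and poly(A) partners had 3 of 15 higher and 0 lower in level (median 0.15), and 4 of 19 had more reads in the 3′-most than the upstream exon, as 10.4% of all pairs had. Among them Fmr1, the synaptic translation repressor, had 77.7%, 77.6% and 88.0% in wild types and 93.1%, 92.5%, 87.5%, 89.4% and 82.5% in mutants (log2 change 0.95, SE 0.389). Cytosolic aminoacyl-tRNA synthetases had 1 of 11 lower in level.

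Among mitochondrial translation factors the initiation factor Mtif2 was called by DESeq2. Its 3′-most exon share was 13.5%, 7.65% and 31.7% in wild types and 52.6%, 58.4%, 44.1%, 59.8% and 34.6% in mutants, with no overlap (edgeR log2 change 2.37, SE 0.513, adjusted p = 0.282; DESeq2 adjusted p = 0.0428). In the first table its level had a log2 change of 1.87 (SE 0.494; DESeq2 adjusted p = 0.0328), while in the second, which adds the upstream site, it was 0.28 (SE 0.177). The elongation factor Gfm1 had a log2 change in level of 0.80 (SE 0.218) and a distal share of 45.0% to 67.3% in wild types and 27.6% to 47.0% in mutants.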

How the data were processed

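Total brain of 3 wild-type and 5 mutant mice was profiled as 3′ end libraries (QuantSeq REV kit), per the labels' protocols. FastQC 0.11.3, STAR 2.5, HTSeq 0.6.0 and build mm9 are named in the submitters' processing notes without their roles. The authors deposited raw whole-number counts per site and library in 2 tables, per the file headers; the choice of sites, the removal of internal priming and the use of strand are not given in the sources used here. Counts were used as deposited, and 0 value columns were left unused.

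Libraries were grouped by genotype; replicate numbers only name them. Chi-square per degree of freedom between libraries of a genotype was 4.94 to 114, so none was counted as a copy. The labels describe separate animals and no batch.

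Pairs with a mean of 20 or more reads per library and 10 or more reads at each site in all were tested (7876 of 7951 and 6001 of 6147). Tests used edgeR 4.0.16 in R 4.3.3, with DESeq2 1.42.0 and limma 3.58.1 as alternatives, other filters and scalings, and each library left out. Standard errors were derived from the log2 change and F (its absolute value divided by the root of F); logCPM used a prior count of 2. The scripts were tested on simulated data. The named genes are, for each test and group, the 6 with the smallest p, plus genes fixed by role, level, share or spacing. Others, among them Mrpl9, Mtif2, Fmr1 and Gfm1, stand outside these rules and were named with their values known. The members and lists were chosen with earlier results of these data known. Positions are given as in the files; promoters come from another build, which was not converted.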

Additional observations from a re-analysis of the deposited data

Results flagged for a closer look

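In 4 of 128 sets of 5 mutant values for the named genes, 1 library lay far from the others by Dixon's test (gap over range above 0.71); chance marks about 1 set in 20, which is more than were found. Mrpl10 had a distal share of 5.54% in mutant 5, with the next mutant at 16.4% and the highest at 20.7%. Eif4g2 had a distal share of 19.9% in mutant 5, with the others between 15.5% and 16.6%. Eef1a2 had 99.53% of its reads in the 3′-most exon in mutant 2 and at least 99.67% in the other mutants. Eef2 had 99.94% there in mutant 2 and at least 99.96% in the others. Mutant 5 is also the mutant whose cerebellar granule markers lay in the wild-type range; the part of this in the values of Mrpl10 and Eif4g2 was not tested.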

How the results depend on the processing

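No paired analysis was possible because the labels give no replicate numbers or pairs. Leaving out 1 library at a time, or wild type 1 and mutant 5 together (chosen after seeing the data), moved the counts at an unadjusted p under 0.05 most. Lower levels ranged from 3 to 29 (mitochondrial) and 0 to 9 (cytosolic) in the first table and from 0 to 12 and 0 to 12 in the second. Distal usage ranged from 4 to 12 and 1 to 9, and usage of the 3′-most exon from 2 to 3 and 2 to 5. All-gene counts at this p, either direction, ranged from 340 to 2596 in level in the first table and 326 to 1958 in the second. For usage of all pairs they ranged from 300 to 2182 inside the last exon and 424 to 1378 between exons. Calls between exons ranged from 0 to 1 (mitochondrial) and 0 to 2 (cytosolic); in the other 3 tests they stayed at 0. Medians for cytosolic distal usage ranged from 0.0143 to 0.131. Leaving out both libraries gave 4 lower cytosolic genes in the first table. A stricter filter (mean of 100 reads, 50 per site) gave 0 mitochondrial genes toward the 3′-most exon. It removed the 3 genes of the looser filter, so the 0 does not bear on them. Mrps28 and Mrps31 had means of 75.4 and 69.5 reads. Mrpl36, with at least 99.47% in the 3′-most exon, had too few upstream reads. The stricter filter also gave 2 lower cytosolic genes in the second table, and the cause of that was not tested. Eif2s1 changed sign in level, from -0.05 to 0.354 without wild type 1 and mutant 5, and was -0.243 to 0.354 over the runs that left libraries out. DESeq2, limma and the other scalings and filters changed no call among the 119 genes. All-gene calls by edgeR were 0 with all libraries, but without mutant 5 there were 236 between exons, 68 and 63 in level, and 0 in distal usage; without wild type 3 there were 160 between exons, 0 in level and 1 in distal usage. The few reads of Eif2ak2, Mrps31, Eef1akmt2 and Mrps28 limit their precision.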
